A study of Rattus norvegicus with 88 samples.

Results

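Expression of 4 genes that mark endothelial cells, the cells that line blood vessels, was followed across the orbitofrontal cortex of outbred rats: Cldn5, Flt1, Kdr and Tek. They were chosen by name, by a rule that uses no measured value, although earlier results of these data were known. All 4 had a row among the 17123 genes of the table. RNA-Seq libraries of polyadenylated RNA were available for 80 Heterogeneous Stock (HS) rats, 41 males and 39 females. HS rats descend from inbred founder strains, so that each animal carries its own mosaic of founder chromosomes. No treatment was given to any of the animals, and the labels give no individual ages. Tissue from both hemispheres was dissected from frozen sections, and each library came from 1 rat. The labels also give a rat batch number, without saying what it stands for. There were 15 rats in batch 2 (4 of them female), 22 in batch 3 (12 female), 26 in batch 4 (14 female) and 16 in batch 6 (8 female), besides a lone female in batch 5.

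The endothelium of the brain forms the blood-brain barrier, which limits what passes between blood and neurons. Cldn5 encodes claudin-5, the main claudin of the tight junctions that seal these cells to each other. Flt1 and Kdr encode VEGF receptor 1 and VEGF receptor 2, tyrosine kinases that bind vascular endothelial growth factor; Kdr carries most of the growth signal, and Flt1 can act as a trap for the ligand. Tek encodes Tie2, the receptor of the angiopoietins, which helps to keep vessels stable. All 4 are expressed mainly by endothelial cells in the adult cortex, which are a minority of the cells in a dissected piece of tissue. In such bulk samples, fewer endothelial cells and less RNA per endothelial cell cannot be told apart.

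The identifiers were ENSRNOG00000045811 for Cldn5, ENSRNOG00000000940 for Flt1, ENSRNOG00000046829 for Kdr and ENSRNOG00000008587 for Tek. The promoters on record for Cldn5, Flt1 and Kdr are shown, so that the tight junction gene can be set beside the VEGF receptor genes, from 250 bases before to 50 bases after the start of the gene (RefSeq, rat assembly GRCr8). The Cldn5 window is chr11:95718549-95718848 on the minus strand, the Flt1 window is chr12:12333180-12333479 on the plus strand and the Kdr window is chr14:32571813-32572112 on the plus strand. Each is written 5′ to 3′ along its gene, and capitals mark the GGAA core bound by ETS factors, a family that includes regulators of endothelial genes, on either strand (TTCC on the other strand), and the cAMP response element TGACGTCA.
Cldn5: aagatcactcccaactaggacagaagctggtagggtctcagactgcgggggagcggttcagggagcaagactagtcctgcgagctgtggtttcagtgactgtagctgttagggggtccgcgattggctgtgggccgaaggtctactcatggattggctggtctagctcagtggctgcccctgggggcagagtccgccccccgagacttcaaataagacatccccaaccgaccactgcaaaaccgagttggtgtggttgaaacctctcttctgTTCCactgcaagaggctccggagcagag
Flt1: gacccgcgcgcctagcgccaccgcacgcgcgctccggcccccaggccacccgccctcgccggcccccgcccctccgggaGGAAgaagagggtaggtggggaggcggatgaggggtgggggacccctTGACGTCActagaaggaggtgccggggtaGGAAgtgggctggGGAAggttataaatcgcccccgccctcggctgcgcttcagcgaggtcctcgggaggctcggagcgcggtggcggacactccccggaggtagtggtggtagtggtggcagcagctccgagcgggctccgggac
Kdr: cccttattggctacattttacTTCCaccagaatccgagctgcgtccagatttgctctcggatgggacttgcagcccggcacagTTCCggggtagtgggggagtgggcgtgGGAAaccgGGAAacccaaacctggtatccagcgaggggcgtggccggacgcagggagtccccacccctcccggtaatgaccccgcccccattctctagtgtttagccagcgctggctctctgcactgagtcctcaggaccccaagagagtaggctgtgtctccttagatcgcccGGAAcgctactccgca

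The ETS core had 1 match in the Cldn5 window, 3 in the Flt1 window and 5 in the Kdr window. So short a motif is found in most promoters, and 95.8% of 33469 rat promoters of the same length held it on either strand. The cAMP response element occurred in the Flt1 window alone among these 3, from -124 to -117 with the start counted as 0, and 1.83% of all promoters held it. Flt1 also had the TATA box letters TATAAA at -75 to -70, which 14.2% of promoters held on either strand. The CCAAT box (CCAAT, 37.5% of promoters) had 2 matches in the Cldn5 window, 1 in the Kdr window and 0 in the Flt1 window. The GC box GGGCGG, held by 33.1% of promoters, had 3 matches for Flt1 and 1 each for Cldn5 and Kdr. None of these matches overlapped another. The SOX letters AACAAT (11.7% of promoters) and the E-box CACGTG (6.42%) had 0 matches in the 3 windows. The Flt1 window held 72.7% G and C, the Kdr window 61% and the Cldn5 window 57.7%, against a median of 51.7% over all promoters. A match describes the letters only.

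The table holds log2 of a normalized read count to which 1 was added; here, levels are given as the normalized count and differences on the log2 scale. The depth of the libraries was 18.0 ± 3.67 M reads (mean ± SD, n = 80, M being the prefix mega). It lay between 5.67 and 25.6 M, as worked out from the steps of the values. Depth here means the reads counted in the 17123 genes of the table, not all raw reads. In reads, the lowest library held 434 for Cldn5, 209 for Flt1, 37 for Kdr and 124 for Tek, so that each gene was counted in every rat. The counts are not scaled to gene length, and levels are therefore not compared between genes. The table names genes by identifier only. Other endothelial genes, tight junction genes, VEGF and angiopoietin ligands and the markers of pericytes, glia, neurons and other cell types could therefore not be looked up and were not analysed here, and the labelled tissue was not checked against markers.

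Across all 80 rats, the normalized count of Cldn5 had a lowest value of 788, a median of 1364 and a highest value of 2088. For Flt1 these values were 693, 890 and 1415. For Kdr they were 91, 151 and 325. For Tek they were 274, 369.5 and 716. The highest rat thus exceeded the lowest 2.65-fold for Cldn5, 2.04-fold for Flt1, 3.57-fold for Kdr and 2.61-fold for Tek. Kdr, which had the fewest reads, had the widest range of the 4 genes.

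**Figure D1:**
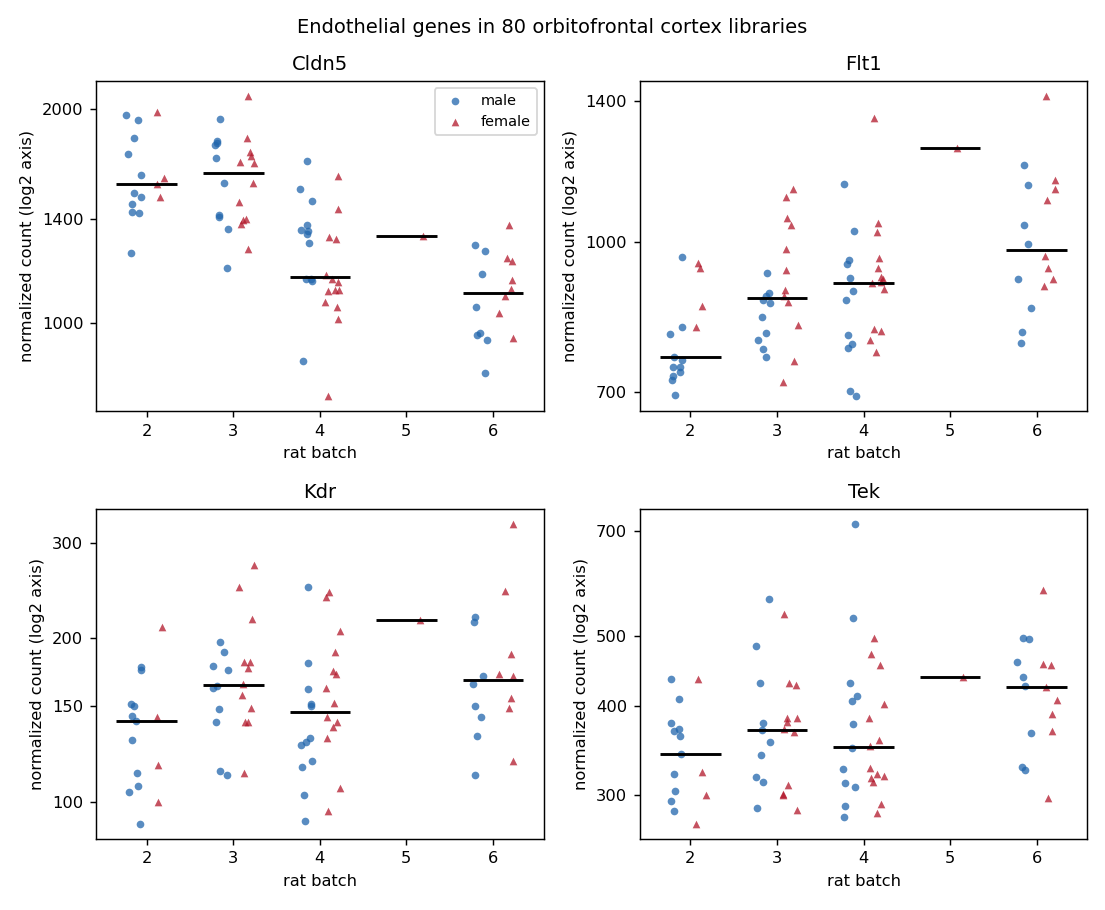
Normalized counts (log2 axis) of the 4 endothelial genes in 80 orbitofrontal cortex libraries by rat batch; each point is 1 rat, males as blue circles and females as red triangles, and the black bar is the median of the batch. Cldn5 medians are 1570 and 1625.5 in batches 2 and 3 and 1159.5 and 1102 in batches 4 and 6, while the Flt1 median goes from 761 in batch 2 to 980 in batch 6.

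To ask whether the sexes differed, males were compared with females with rat batch as a factor (limma on all 17123 genes). Of the 4 endothelial genes, 0 passed an adjusted p of 0.05, and 0.117% of all genes tested passed (20 of 17123). Before adjustment, Flt1 and Kdr were under 0.05, as were 7.14% of all genes (1223).

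Flt1, the VEGF receptor that can trap its ligand, had a lowest count of 716, a median of 936 and a highest count of 1415 in females, and of 693, 817 and 1200 in males. The ranges overlapped widely, with the male median lower. The difference of males from females was -0.13 on the log2 scale (SE 0.04, 95% interval -0.22 to -0.05, limma p = 0.00223, adjusted p = 0.304). It was below 0 in each batch with both sexes, at -0.22 (SE 0.11) in batch 2, -0.14 (SE 0.08) in batch 3, -0.09 (SE 0.07) in batch 4 and -0.14 (SE 0.09) in batch 6.

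Kdr, the receptor that carries most of the VEGF signal, had a lowest count of 96, a median of 165 and a highest count of 325 in females, and of 91, 148 and 248 in males. Here too the sexes overlapped over most of the range. The difference was -0.16 (SE 0.08, limma p = 0.0492, adjusted p = 0.695), and it was below 0 in all 4 of these batches, from -0.05 in batch 2 to -0.20 in batch 4. Neither gene passed after adjustment over all genes in any of the fits that were run.

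For Cldn5, the lowest, median and highest counts were 788, 1322 and 2088 in females and 849, 1408 and 1962 in males. The sexes covered nearly the same range, and the difference was 0.02 (SE 0.05, 95% interval -0.08 to 0.12, limma adjusted p = 0.971). For Tek they were 274, 371 and 580 in females and 280, 369 and 716 in males. The medians were close, and the difference was 0.05 (SE 0.06, 95% interval -0.07 to 0.18, limma adjusted p = 0.934). An interaction of sex and batch was not called for any of the 4 genes (limma moderated F test, adjusted p = 1.00 for each, unadjusted p from 0.182 for Cldn5 to 0.947 for Kdr), with 0% of all genes called and 2.63% (451) under 0.05 before adjustment.

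**Figure D2:**
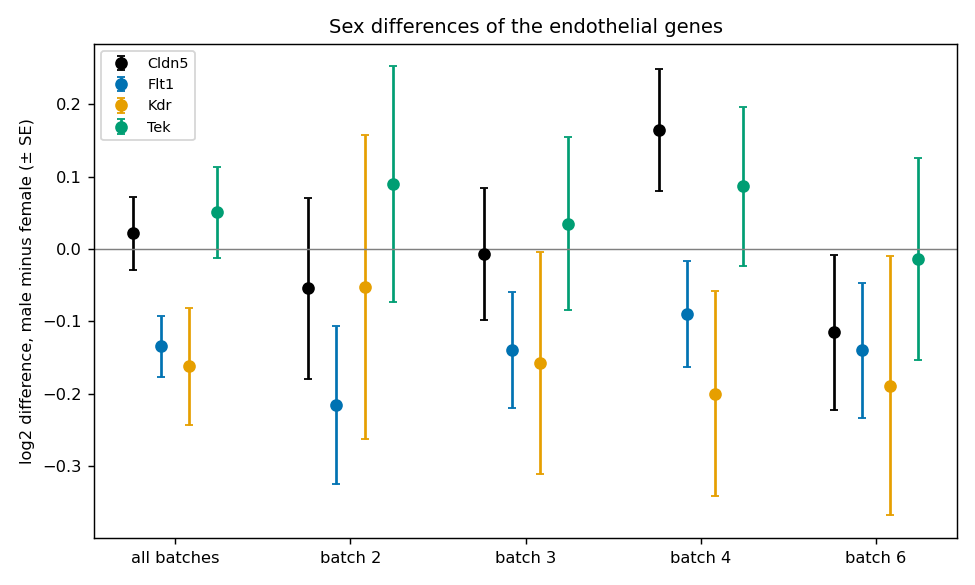
Log2 difference of males from females (± SE) for the 4 endothelial genes, over all batches and within batches 2, 3, 4 and 6. Flt1 and Kdr lie below 0 in every batch, at -0.13 and -0.16 over all batches, while Cldn5 and Tek lie at 0.02 and 0.05.

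The levels were next compared between rat batches 2, 3, 4 and 6 with sex as a covariate, leaving out the single rat of batch 5. Cldn5 and Flt1 passed the limma moderated F test after adjustment, that is 2 of 4 genes, against 64.7% of all genes tested (11078 of 17123). Differences between batches were thus common in the whole table. The batch means of Cldn5 spanned 0.55 on the log2 scale (limma adjusted p = 9.75e-12) and those of Flt1 spanned 0.30 (adjusted p = 0.000667). Kdr spanned 0.31 (adjusted p = 0.0739) and Tek spanned 0.28 (adjusted p = 0.0724). The median span was 0.32 over all genes and 0.284 over genes with a mean log2 value of 3 or more, which include the 4 members. Flt1 was not called without batch 6 (span 0.13, adjusted p = 0.118) or in females alone (0.25, adjusted p = 0.191), and with 20 principal components as covariates neither Cldn5 (0.14, adjusted p = 0.597, with batch 6 highest) nor Flt1 (0.30, adjusted p = 0.207) was among the called genes, of which there was 1 in the whole table. Cldn5 was highest in batch 2 and lowest in batch 6, and the 3 receptor genes were highest in batch 6 and lowest in batch 2.

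Cldn5 had a lowest count of 1256, a median of 1570 and a highest count of 1981 in batch 2, and of 1193, 1625.5 and 2088 in batch 3. In batch 4 these values were 788, 1159.5 and 1691. In batch 6 they were 849, 1102 and 1372. The rats of batches 2 and 3 were high and those of batches 4 and 6 low, with some overlap: 14 of 15 rats of batch 2 were above every rat of batch 6, and 0 of 16 rats of batch 6 were above the median of batch 2. Cldn5 was lower in batch 6 than in batch 2 (-0.55, SE 0.08, limma adjusted p = 7.76e-09; 26.6% of all genes were called lower). It was also lower in batch 6 than in batch 3 (-0.53, SE 0.07, adjusted p = 1.68e-09; 25.1% of genes called lower), in batch 4 than in batch 2 (-0.39, SE 0.07, adjusted p = 2.74e-06; 24.1%) and in batch 4 than in batch 3 (-0.38, SE 0.06, adjusted p = 6.09e-07; 21.6%). Batches 2 and 3 differed by -0.02 (SE 0.07, 95% interval -0.16 to 0.13, adjusted p = 0.927), and batch 6 differed from batch 4 by -0.16 (SE 0.07, adjusted p = 0.117). The difference of batch 6 from batch 4 was called with array weights (-0.17, limma adjusted p = 0.0381) and in males alone (-0.30, adjusted p = 0.0421). Of 17123 genes, 4034 were called for this pair with array weights and 1672 in males alone, in either direction, against 2329 in the fit above. In females alone the difference of Cldn5 was -0.02 and was not called (limma adjusted p = 0.971).

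Flt1 had a lowest count of 695, a median of 761 and a highest count of 964 in batch 2, and of 716, 875.5 and 1135 in batch 3. In batch 4 these values were 693, 908 and 1342. In batch 6 they were 786, 980 and 1415. The ranges overlapped, but 16 of 16 rats of batch 6 were above the median of batch 2. That count was not adjusted for sex, and the batch 2 medians were 742 in its 11 males and 899.5 in its 4 females. Flt1 was higher in batch 6 than in batch 2 (0.30, SE 0.07, limma adjusted p = 8.51e-05; 27.2% of all genes were called higher), in batch 6 than in batch 3 (0.19, SE 0.06, adjusted p = 0.00581; 25.8%) and in batch 6 than in batch 4 (0.17, SE 0.06, adjusted p = 0.0404; 6.11%). The last of these calls held, for instance, with array weights (0.21, limma adjusted p = 0.00445), where 4034 of 17123 genes were called in either direction. It did not hold without batch 2 (0.17, adjusted p = 0.0581), with no sex term (0.16, adjusted p = 0.0608), in males alone (0.14, adjusted p = 0.247) or with 20 principal components (0.30, adjusted p = 0.190). The other pairs of batches did not pass for Flt1. With every library scaled to an equal total, the difference of batch 4 from batch 2 was 0.17 and was called (limma adjusted p = 0.0146), with 4830 of 17123 genes called higher.

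Kdr had a lowest count of 91, a median of 141 and a highest count of 210 in batch 2, and of 112, 167.5 and 325 in batch 6. The medians were 164 in batch 3 and 146.5 in batch 4. The batches overlapped over most of their ranges, and 13 of 16 rats of batch 6 were above the median of batch 2. Kdr was higher in batch 6 than in batch 2 (0.31, SE 0.13, limma adjusted p = 0.0331), where 27.2% of all genes were called higher. This was the only one of its 6 pairs of batches to pass. After quantile normalization this difference was 0.24 and was not called (adjusted p = 0.0990).

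Tek, the angiopoietin receptor, had a lowest count of 274, a median of 343 and a highest count of 436 in batch 2, and of 298, 425 and 580 in batch 6. The medians were 370.5 in batch 3 and 350 in batch 4. Again 13 of 16 rats of batch 6 were above the median of batch 2, with wide overlap. Tek was higher in batch 6 than in batch 2 (0.28, SE 0.10, limma adjusted p = 0.0133), where 27.2% of all genes were called higher. This was also its only pair to pass. With equal totals, Tek was higher in batch 6 than in batch 3 as well (0.24, limma adjusted p = 0.0177), as were 6085 of 17123 genes. The scaling also moved the background: of the genes called between batches 2 and 6, 50.6% were higher in batch 6 as deposited and 62% with equal totals. For batch 4 against 2 these shares were 50.4% and 58.9% higher in batch 4. For batch 6 against 3 they were 50.6% and 70.3%. For batch 4 against 3 they were 49.5% and 71.1% higher in batch 4, and for batch 6 against 4 they were 45% and 60.6%. Between batches 2 and 6, then, with sex as the only covariate, the tight junction gene was lower in batch 6 and each of the 3 receptor genes was higher. In males alone, the differences of Kdr (0.27, limma adjusted p = 0.136) and Tek (0.24, adjusted p = 0.141) were not called. With 20 principal components as covariates none of the 4 genes was called for this pair, and Cldn5 lay at 0.05 (adjusted p = 0.963).

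**Figure D3:**
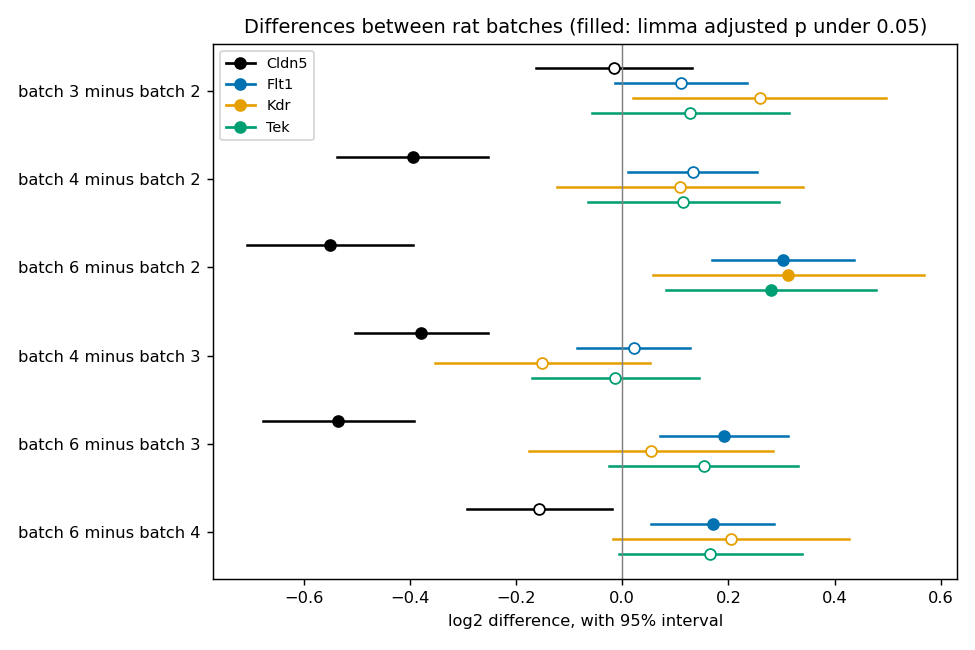
Log2 differences between each pair of rat batches with 95% intervals for the 4 endothelial genes; filled points have a limma adjusted p under 0.05. For batch 6 minus batch 2, Cldn5 lies at -0.55 and Flt1, Kdr and Tek lie at 0.30, 0.31 and 0.28.

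The batches were not spread evenly over the columns of the table. The names of the columns rose in order within 3 stretches: stretch 1 held 14 rats of batch 2 and 7 of batch 3, stretch 2 held 1 of batch 2 and 12 of batch 3, and stretch 3 held 3 of batch 3 and all of batches 4, 5 and 6. What the stretches stand for is not given in the sources used here. With stretch as a further factor, 18.6% of all genes (3178) were called between batches. Cldn5 then spanned 0.31 (limma adjusted p = 0.161), Flt1 spanned 0.27 (adjusted p = 0.0862), Tek spanned 0.17 (adjusted p = 0.349) and Kdr spanned 0.78 (adjusted p = 0.0417). In this fit, batch 6 differed from batch 2 by -0.31 for Cldn5 (SE 0.16, adjusted p = 0.210), 0.27 for Flt1 (SE 0.14, adjusted p = 0.220), 0.78 for Kdr (SE 0.27, adjusted p = 0.0455) and 0.14 for Tek (SE 0.21, adjusted p = 0.740). The directions were those without the stretch term, and for this pair of batches Kdr alone of the 4 genes was called, against 9.84% of all genes. For batch 6 against batch 4 in the same fit, Flt1 was called (0.17, SE 0.06, adjusted p = 0.0398; 15.1% of all genes called), and the other members were not. Inside batch 3, Cldn5 averaged 10.39 in the 3 rats of stretch 3 and 10.67 in the 19 rats of the other stretches (difference with sex in the model -0.29, SE 0.11, limma p = 0.0177, adjusted p = 0.119; 6.98% of all genes called). For Flt1 the same difference was 0.02 (SE 0.11), for Kdr it was -0.35 (SE 0.19) and for Tek it was 0.16 (SE 0.17), and none of the 3 passed. Batches 2 and 4, and batches 2 and 6, share no stretch, so that for these pairs batch and stretch cannot be told apart by a direct comparison. With the stretch term, these pairs are linked only through batch 3, which had 3 rats in stretch 3. The Kdr call for batch 6 against 2 in that fit thus depends on these 3 rats. Their mean for Kdr was 7.05, against 7.42 in the other 19 rats of batch 3. Inside stretch 3, where batches 4 and 6 can be compared directly, batch 6 differed from batch 4 by -0.16 for Cldn5 (SE 0.07, adjusted p = 0.134) and by 0.17 for Flt1 (SE 0.06, adjusted p = 0.0720).

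To see whether the 4 genes varied together from rat to rat, sex and batch were fitted as separate terms, without an interaction, and removed. The residuals were correlated over the 80 rats, for 6 pairs of genes. The 3 receptor genes varied together. Flt1 and Tek had r = 0.56 (95% interval 0.38 to 0.70, Spearman rho 0.49; permutation p = 1e-05, the smallest that 100000 permutations can give, adjusted over the 6 pairs p = 3e-05; for rho p = 2e-05, adjusted p = 6e-05). Kdr and Tek had r = 0.54 (95% interval 0.35 to 0.68, rho 0.47, with the same 4 permutation p values). Flt1 and Kdr had r = 0.51 (95% interval 0.32 to 0.66, rho 0.44; permutation p = 2e-05, adjusted p = 4e-05; for rho p = 7e-05, adjusted p = 0.00014). Cldn5 did not pass with any receptor. It had r = 0.13 with Flt1 (95% interval -0.10 to 0.35, rho 0.08, permutation p = 0.273 and 0.470 for rho, adjusted p = 0.296 and 0.564), r = 0.12 with Kdr (95% interval -0.11 to 0.34, rho 0.04, permutation p = 0.296 and 0.709, unchanged by adjustment) and r = 0.20 with Tek (95% interval -0.03 to 0.40, rho 0.15, permutation p = 0.102 and 0.190, adjusted p = 0.153 and 0.285). Whether the coefficients of Cldn5 differed from those among the receptors was not tested.

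**Figure D4:**
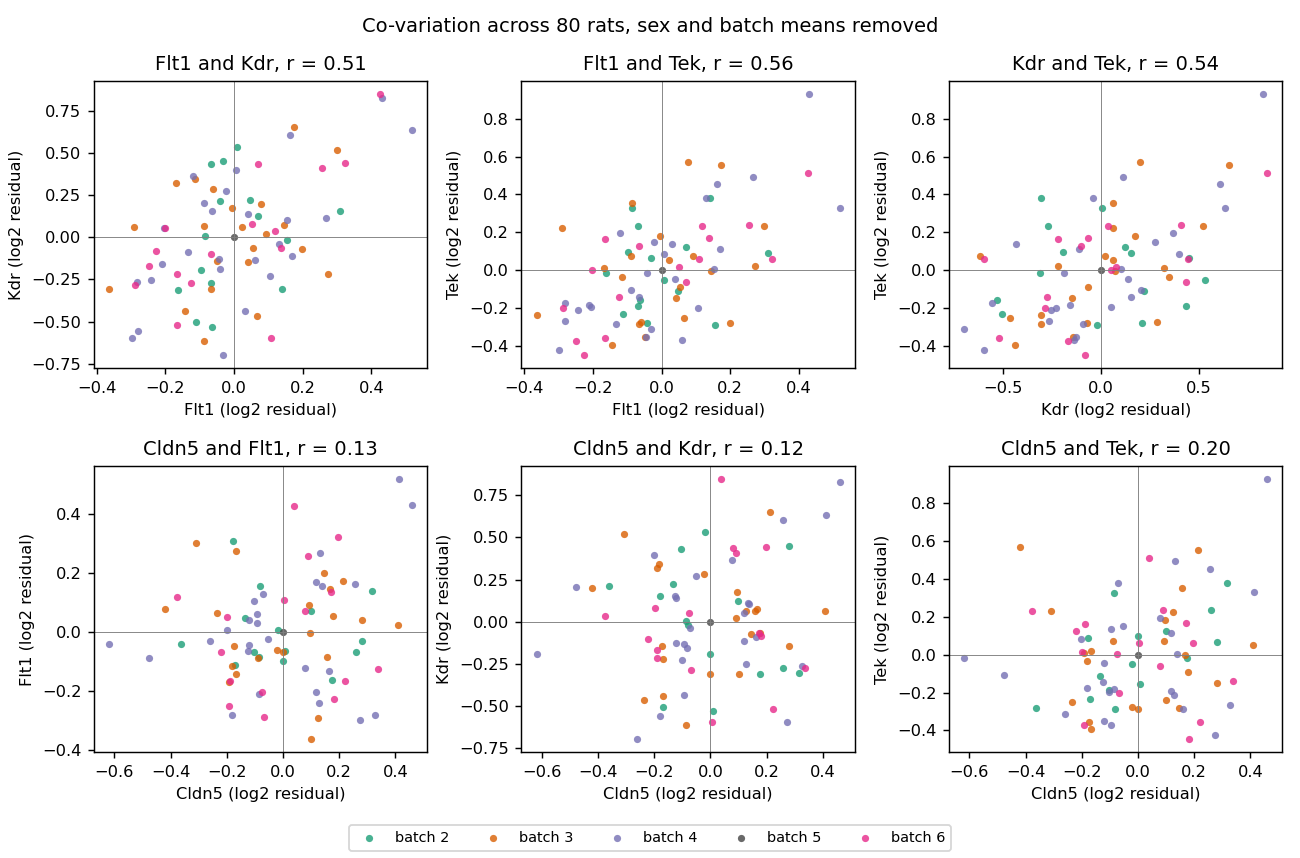
Log2 residuals, after the fitted terms for sex and batch were removed, for the 6 pairs of endothelial genes. Each point is 1 of 80 rats, coloured by batch, and the single rat of batch 5 lies at 0. The 3 pairs of receptor genes in the upper row have r of 0.51 to 0.56, and the pairs with Cldn5 in the lower row have r of 0.12 to 0.20.

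Within batches the receptor pairs had coefficients between -0.13 and 0.31 in batch 2 (n = 15) and between 0.25 and 0.59 in batch 3 (n = 22). Those of batch 4 (n = 26) were between 0.64 and 0.74, and those of batch 6 (n = 16) between 0.57 and 0.77. In batch 2, Kdr and Tek had r = -0.13 (95% interval -0.62 to 0.43, rho -0.11), Flt1 and Tek had r = 0.16 (interval -0.41 to 0.64, rho 0.12) and Flt1 and Kdr had r = 0.31 (interval -0.26 to 0.72, rho 0.49). With 15 rats these intervals were wide and each held both 0 and a clear positive correlation. A difference between batches was not tested. The pairs with Cldn5 lay between -0.18 and 0.66 in batch 2 and between -0.07 and 0.03 in batch 3. Batch 4 gave 0.28 to 0.38, and batch 6 gave -0.33 to 0.14. Their widest contrast was Cldn5 with Tek, at 0.66 in batch 2 (95% interval 0.20 to 0.88) and -0.33 in batch 6 (interval -0.72 to 0.22). Of the 6 pairs in batch 2, only Cldn5 with Tek had an interval that left out 0. Without the 2 rats farthest from the median of the gene on the x axis, the receptor pairs had r from 0.44 to 0.50 and the pairs with Cldn5 had r from 0.12 to 0.20. The receptor pairs had r from 0.54 to 0.58 in males alone and from 0.50 to 0.55 in females alone.

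**Figure D5:**
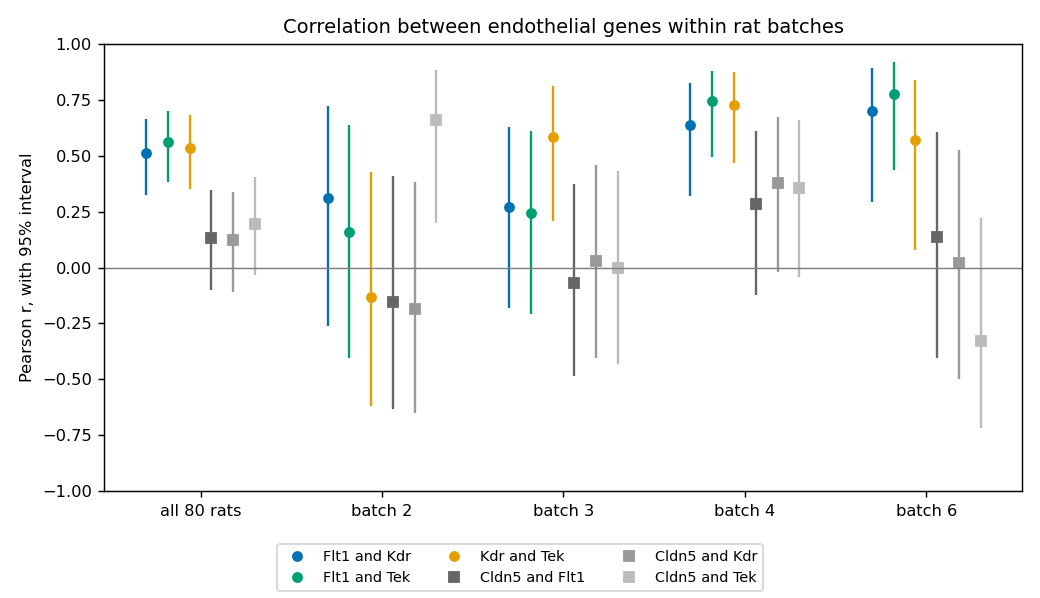
Pearson r with 95% intervals for the 6 pairs of endothelial genes, over all 80 rats and within batches 2, 3, 4 and 6; circles are pairs of receptor genes and squares are pairs with Cldn5. The receptor pairs lie at 0.64 to 0.74 in batch 4 and at 0.57 to 0.77 in batch 6, and between -0.13 and 0.31 in batch 2.

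The partners were also ranked among 14802 other genes, whose mean log2 value was 3 or more, by their r with each member. For Kdr, Tek ranked 10 and Flt1 ranked 19. For Flt1, Tek ranked 18 and Kdr ranked 58. For Tek, Flt1 ranked 58 and Kdr ranked 95. The receptor genes were thus among the closest genes to each other in the table, whose 95th percentiles of r were 0.29 for Kdr, 0.32 for Flt1 and 0.38 for Tek. For Cldn5, Tek ranked 3734, Flt1 4974 and Kdr 5144, and the highest r of any gene with Cldn5 was 0.69.

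The rats at the ends for the 3 receptor genes, chosen by their receptor residuals, are given as a description. The male numbered 35, of batch 4, had 1149 for Flt1, 248 for Kdr and 716 for Tek, which were the ranks 6, 4 and 1 from the highest, with 1691 for Cldn5 at rank 15. The female numbered 27, of batch 6, had 1415 for Flt1, 325 for Kdr and 580 for Tek, ranks 1, 1 and 2, but 1115 for Cldn5 at rank 64. At the other end, the male numbered 17, of batch 4, had 693 for Flt1, 92 for Kdr and 280 for Tek, ranks 80, 79 and 79, with 1486 for Cldn5 at rank 28. Relative to the level fitted from sex and batch as separate terms, Cldn5 was at 0.46 on the log2 scale in male 35, 0.04 in female 27 and 0.27 in male 17. The log2 value of female 27, 10.124, was nevertheless below the mean of the 8 females of batch 6, 10.155. Female 3 of batch 4 was also high for the receptors, with 1342 for Flt1, 243 for Kdr and 456 for Tek. Its Cldn5 count of 1612 was 0.41 above its fitted level. Female 41 of batch 4 was low, with 770, 106 and 321 in the same order. Its Cldn5 count of 1068 fell short of its fitted level (-0.18). Female 13 of batch 3 had 716, 140 and 310, with Cldn5 at 1687 (0.10). Cldn5 was thus on the same side of its fitted level as the receptors in 4 of these 6 rats and on the other side in 2. Against the mean of its own sex within its batch, Cldn5 of female 27 would fall on the other side. Among the 80 rats, 18 were above the fitted level for all 3 receptor genes, and Cldn5 was above in 12 of them. Another 21 rats were below the fitted level for all 3 receptor genes, and Cldn5 was below in 11 of these.

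The residual SD among rats, on the log2 scale after sex and batch, was 0.22 for Cldn5, 0.19 for Flt1, 0.36 for Kdr and 0.28 for Tek, and the median over the 14803 genes that had a mean log2 value of 3 or more was 0.20. The SD that counting error alone would give was 0.04, 0.05, 0.13 and 0.08 for the same genes. Counting error was the largest for Kdr, which had the fewest reads. Among genes whose mean lay within 0.5 of the member on the log2 scale, 9.76% had a larger SD than Cldn5, 23.6% a larger one than Flt1, 13.4% a larger one than Kdr and 11.7% a larger one than Tek. Batch held 53.4% of the total variance of Cldn5, 22.9% of that of Flt1, 11.1% of that of Kdr and 9.09% of that of Tek, and 20.3% for the median gene. Sex held 12.7% for Flt1, 6.56% for Kdr, 0.94% for Cldn5 and 0.251% for Tek, and 0.549% for the median gene. Column stretch held 52.2% of the variance of Cldn5, 12.1% of that of Flt1, 4.61% of that of Tek and 0.279% of that of Kdr, and 17.2% for the median gene. Each share was worked out with that factor alone in the model. The factors were not balanced (11 males and 4 females in batch 2), so that the shares overlap and those of sex can hold part of the batch differences. Log2 depth had r between -0.00437 and 0.0841 with the residuals of the 4 genes over 80 rats, and the number of genes at 0 had r between -0.18 and 0.09. For these 8 relations the permutation p adjusted over all 8 was 0.73 or higher for r and 0.833 or higher for rho.

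By r with the mean of the 4 standardized residuals, the 2 genes most like the members over the 80 rats were ENSRNOG00000055962 (r = 0.73, rho 0.75) and ENSRNOG00000013324 (r = 0.73, rho 0.69), among 14799 genes. The former had r = 0.41 with Cldn5, 0.60 with Flt1, 0.55 with Kdr and 0.53 with Tek. The latter had r = 0.45, 0.59, 0.50 and 0.54 in the same order. Over the 10 genes most alike, r with a receptor gene ranged from 0.35 to 0.64 and r with Cldn5 from 0.21 to 0.52.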

How the data were processed

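RNA was measured by single-end RNA-Seq in 80 libraries, and 8 further samples of the 88 in the labels, marked as removed, were not analysed here. The authors trimmed reads with cutadapt, estimated counts per gene with RSEM on the Ensembl rat transcriptome (Rnor_6.0 in the labels), applied an upper quartile adjustment with DESeq2 and deposited log2 values after adding a pseudocount of 1. Raised back, every value was a whole number within a relative departure of 3.47e-06. The multiple that 1 read was worth was found per library from values up to 300, giving recovered reads and depth. In each library, 100% of these values equalled a whole multiple of it after rounding. Where the multiple was below 1 (lowest 0.733), any whole number would do so, and the share checks nothing in those libraries. The members and gene lists were chosen with earlier results of these data known. Named genes were the 4 members, and at most 2 identifiers of the 10 genes most like them. The RefSeq gene table held 0 Ensembl identifiers, so no listed gene could be matched. Models were limma 3.58.1 (R 4.3.3; lmFit, eBayes with a mean trend) on all 17123 genes, with Benjamini-Hochberg adjustment and a threshold of 0.05; the added 1 makes log2 differences of low genes too small. Each rat is a separate animal, and replicate numbers follow accession order. Correlations used 100000 two-sided permutations of rats within batch (scipy 1.17.1 and numpy 2.4.6 in Python 3.11.15; plots with matplotlib 3.10.9). Column stretches were noticed in the data. The scripts were tested on simulated data. Alternatives were other scalings, pseudocount 10, a mean of at least 3, array weights, voom, depth, 20 principal components, column stretch, and batches or sexes alone or left out.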

Additional observations from a re-analysis of the deposited data

How the results depend on the processing

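No paired analysis was possible because males and females are different rats whose numbers only name them. The sex differences and the interactions of the 4 genes were on the same side of the threshold, not called, under every alternative run. With 20 principal components as covariates the sex differences moved to -0.18 for Cldn5, -0.25 for Flt1, -0.44 for Kdr and -0.05 for Tek (SE 0.15 to 0.31), so that the sign turned for Cldn5 and Tek. The span of the batch means of Cldn5 was 0.314 with a column stretch term, 0.283 in stretch 3 alone, 0.0131 in stretch 1 alone and 0.137 with 20 principal components as covariates, under which batch 6 was the highest rather than the lowest; none of these was called. For Flt1 it was 0.273, 0.179, 0.0819 and 0.303 in the same 4 fits, 0.133 without batch 6 and 0.245 in females alone, again not called. The cause was not tested, although fits on fewer rats hold fewer samples. Kdr was called at 0.373 with equal library totals, 0.330 with array weights, 0.782 with the stretch term and 0.351 with no sex term. Tek was called at 0.341 with equal totals, 0.320 with array weights, 0.282 without batch 3 and 0.276 without batch 4. Of 17123 genes, 11051 were called with equal totals, 11557 with array weights and 11088 with no sex term. Without batch 3 the count was 10250, and without batch 4 it was 9839. Cldn5 was not called with the stretch term at -0.158 (batch 4 minus 2), -0.314 (6 minus 2), -0.128 (4 minus 3) and -0.285 (6 minus 3), nor in stretch 3 alone at -0.126 (4 minus 3) and -0.283 (6 minus 3). Flt1 was not called with the stretch term at 0.273 (6 minus 2) and 0.174 (6 minus 3), nor in stretch 3 alone at 0.179 (6 minus 3) and 0.169 (6 minus 4), and was called at 0.17 (4 minus 2) with equal totals. For batch 6 minus 2, Kdr was not called at 0.241 after quantile normalization or at 0.270 in males alone. Tek was not called at 0.135 with the stretch term or at 0.238 in males alone. With 20 components neither gene was called for this pair, at 0.645 for Kdr and 0.421 for Tek. Tek was called at 0.243 (6 minus 3) with equal totals. Over all genes, 11078 were called between batches, against 3178 with the stretch term, 2357 and 333 in stretches 3 and 1 alone, 6156 in females alone and 1 with 20 components. For sex, 20 genes were called, against 34 with equal totals, 31 with array weights, 10 with 20 components, 13 without batch 4 and 9 to 14 in a single batch or in stretch 2 alone. For the interaction, 0 were called, against 2 with pseudocount 10, 1 with array weights and 1 with the stretch term. None of the 4 endothelial genes was among those called for sex or for the interaction. The stretch fits, and equal totals for pairs of batches, were chosen after seeing the data. With 20 components removed, the residual SD was 0.127 for Cldn5, 0.161 for Flt1, 0.264 for Kdr and 0.171 for Tek. The r of Cldn5 with Flt1 was -0.216 on deposited values and -0.153 in batch 2, with Kdr -0.184 in batch 2 and 0.38 in batch 4, and with Tek 0.661 in batch 2 and -0.327 in batch 6. Flt1 and Kdr had 0.311, 0.273 and 0.70 in batches 2, 3 and 6, and Flt1 and Tek had 0.159, 0.246, 0.743 and 0.775 in batches 2, 3, 4 and 6. Kdr and Tek had -0.132 in batch 2, 0.729 in batch 4 and 0.254 with 20 components removed. Of the 10 genes most like the members, 6 were also among the 10 by Spearman rho and 3 among the 10 on deposited values. Depth limited Kdr most, with 37 reads in its lowest library.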

Other observations

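The single female of batch 5 entered no batch comparison. Its normalized counts were 1324 for Cldn5, 1251 for Flt1, 216 for Kdr and 438 for Tek. Its Flt1 count lay above the batch 6 median of 980, and its Cldn5 count lay between the batch 4 median of 1159.5 and the batch 2 median of 1570. It was not tested against the other batches.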
